A study of Mus musculus with 9 samples.

Results

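Cadherins join neighbouring cells by binding each other across the gap between membranes, and the classical members hold on to the actin cytoskeleton through catenins bound to their tails. Cells that condense from kidney mesenchyme into a renal vesicle, the earliest epithelial stage of the nephron, are known to exchange mesenchymal cadherins for epithelial ones, and parts of the later nephron are known to carry different cadherins. The members described here are the type I cadherins Cdh1, Cdh2, Cdh3 and Cdh4, the type II cadherins Cdh6 and Cdh11, and the kidney cadherin Cdh16. Cdh16 belongs to the 7D cadherins, whose short tail lacks the catenin-binding region, so the name classical cadherin does not cover it.

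The members were chosen by gene: all probe sets whose only symbol in the platform annotation is Cdh1, Cdh2, Cdh3, Cdh4, Cdh6, Cdh11 or Cdh16. This gave 13 probe sets for 7 genes, of 45101 on the array, and 12 of the 13 passed a filter on dim probe sets and were tested. Renal vesicles had been cut by laser from kidneys of Lim1 mutant mouse embryos (4 arrays) and of wild-type embryos (5 arrays), all at E12.5, with some 30 to 50 vesicles per array. The labels describe the samples as biologically independent, and give neither the Lim1 allele, the strain nor the number of embryos in a sample, and Lim1 is the older name of Lhx1, a LIM homeodomain factor of the early nephron. Signals are given as deposited, on a linear scale with no fixed unit, and each probe set was compared only with itself across arrays, because probe sets differ in how well they bind. Log2 differences are mutant minus wild type on a quantile-normalised log2(signal + 42.4) scale, with the limma standard error.

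Lhx1 served as the check of the labels. At one of its probe sets no mutant array read above 10.5, against 2327 or more on every wild-type array (1421951_at, log2 difference -6.64 ± 0.57, limma adjusted p = 0.00329). At the other the mutants read 4108 to 4951, inside the wild-type span of 1696 to 18555 (1450428_at, adjusted p = 0.833). Wild-type arrays 3 and 1 stood apart from the rest: their correlations to all others averaged 0.849 and 0.859, while the remaining 7 averaged between 0.877 and 0.901. The 3 prime to 5 prime signal ratio of the Gapdh control, a sign of RNA quality, spanned 17.8 to 61.4 in mutants and 12.4 to 87.6 in the wild type, highest on wild-type array 3. Vesicle markers were present in both groups, such as Wnt4, the signal that drives vesicle formation, at 27893 ± 11985 in mutants (SD, n = 4) and 28137 ± 13385 in the wild type (n = 5).

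No cadherin passed the test across all probe sets. In limma, 0 of 12 tested cadherin probe sets reached an adjusted p of 0.05, where 9 of 27022 probe sets did, or 0.0333%, and 3 to 5 did when any single array among wild-type arrays 2, 4 and 5 and the 4 mutant arrays was left out. An unadjusted p of 0.05 was reached by 4 of the 12, belonging to Cdh1, Cdh2 and Cdh4, where 6.67% of all probe sets reached it. Both Cdh2 probe sets are among the 4 and are not separate results, since their log2 values correlated at r = 0.888. The members had been chosen with earlier results of these data known, those of Cdh2 and Cdh6 among them. The 6.67% is therefore a background and no test of this count. Of the 12, 8 had differences above 0 and 4 below, with a median of 0.37. Over all tested probe sets 47.3% were below 0 and the median was 0.03. The mutant and wild-type signals overlapped at each of the 12, where 2.25% of all tested probe sets showed no overlap. The median standard error of the 12 was 0.48, close to the 0.49 of all tested probe sets. With errors of this size, a missed threshold does not show that a cadherin did not differ.

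**Figure D1:**
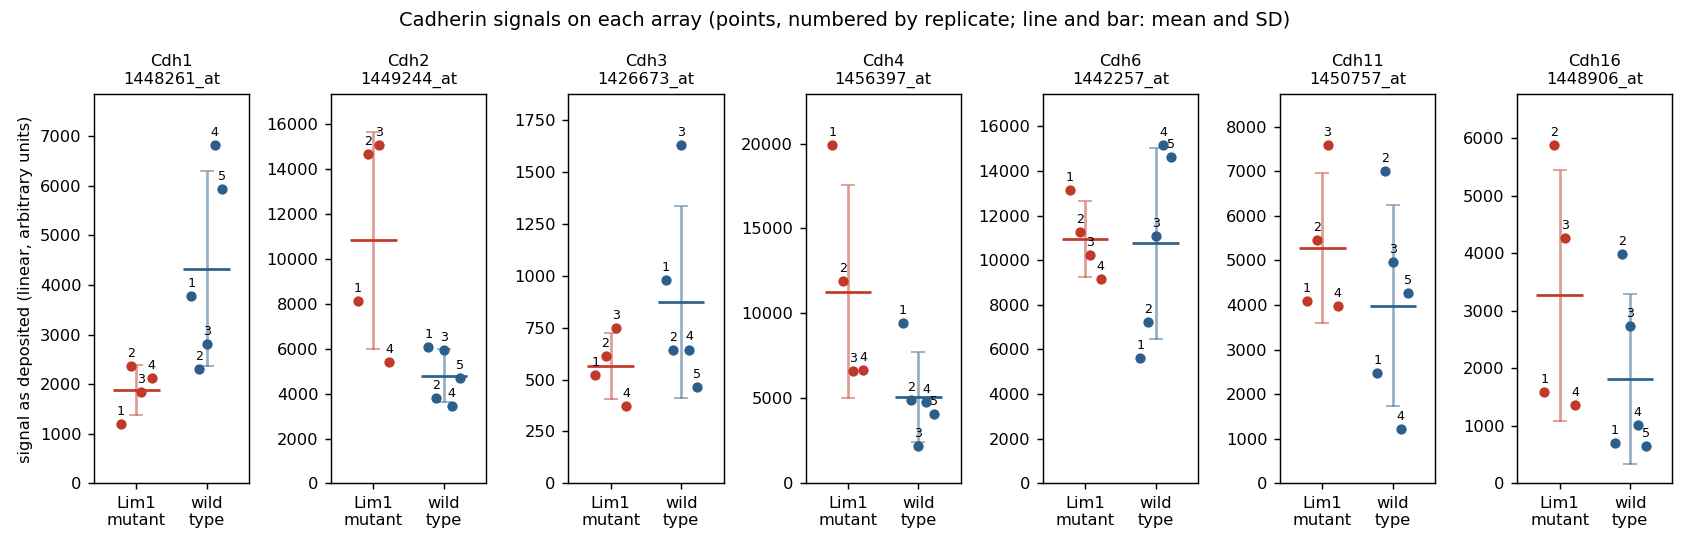
Signal as deposited (linear axis from 0, arbitrary units) of each cadherin at its probe set with the highest mean, on the 4 mutant and 5 wild-type arrays; points are arrays numbered by replicate, and the line and bar are the mean and SD. For Cdh1, 3 mutant arrays lie below the lowest wild-type array, and for Cdh2, 3 mutant arrays lie above the highest, while for Cdh6 the mutant arrays fall inside the wild-type range.

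Cdh1 encodes E-cadherin, the cadherin of most epithelia, carried in the kidney by the ureteric bud and by the distal part of the developing nephron. Its signal on the mutant arrays was 1206, 2373, 1834 and 2119, against 3767, 2313, 2805, 6817 and 5926 on the wild-type arrays (1448261_at). Of the 4 mutant arrays, 3 lay below the lowest wild-type array, and mutant array 2 lay just above it. The means were 1883 ± 502 in mutants and 4326 ± 1965 in the wild type (SD), and the log2 difference was -1.10 ± 0.40, with an unadjusted interval of -1.99 to -0.22. The limma adjusted p was 0.703, and the exact permutation p was 0.0397, two-sided over all splits of the arrays into 4 and 5, where the smallest possible is 0.00794. In captured tissue, fewer cells of a type and less RNA per cell cannot be told apart.

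Within the wild type, Cdh1 was high on arrays 4, 5 and 1 and low on arrays 2 and 3. The vesicle marker list was likewise highest on arrays 4, 5 and 1, at 0.69, 0.62 and 0.55, where the level of a list is the median log2 deviation of its genes from their means over the 9 arrays. Wild-type arrays 2 and 3 were at -0.14 and -0.55, and the mutant arrays were at -0.51 to -0.28. The vesicle list includes the mutated Lhx1, and also Dkk1, Dll1, Hes5 and Jag1, whose differences were below 0. Its levels on the mutant arrays therefore do not measure vesicle cell content alone. In the wild type the ureteric bud list, which rests on 5 tested genes, ran otherwise. Its highest levels, 1.41 and 0.94, were on wild-type arrays 2 and 3, where Cdh1 was low. Wild-type arrays 1, 4 and 5 were at 0.29, -0.81 and 0.20 for this list. Mutant arrays 1 to 4 were at -1.15, -1.86, 0.64 and -0.04. The part of the vesicle and bud cells in the Cdh1 values was not tested.

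Cdh2 encodes N-cadherin, known from mesenchyme and neural tissue and, in the kidney, from the proximal tubule. At its probe set with the highest mean the signal was 8135, 14689, 15070.2 and 5400.2 on the mutant arrays, against 6086, 3825, 5937, 3464 and 4712 on the wild-type arrays (1449244_at). Mutant arrays 1, 2 and 3 lay above every wild-type array, and mutant array 4 lay among them. The means were 10824 ± 4817 in mutants and 4805 ± 1193 in the wild type, and the log2 difference was 1.07 ± 0.34, with an unadjusted interval of 0.32 to 1.82. The limma adjusted p was 0.652 and the exact permutation p was 0.0317.

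A second Cdh2 probe set gave the same picture, with 4366, 6308, 7663 and 2071 on the mutant arrays and 1506, 1505, 2425, 2423 and 2301 on the wild-type arrays (1418815_at). Its log2 difference was 1.18 ± 0.41 (limma adjusted p = 0.696, exact permutation p = 0.0317). Again mutant array 4 was the array that lay inside the wild-type range. The log2 values of both probe sets correlated at r = 0.888 over the 9 arrays, which is a description of agreement within the gene.

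Cdh3 encodes P-cadherin, an epithelial cadherin whose gene is the immediate neighbour of Cdh1 in the RefSeq gene order. Its signal was 522, 614, 748 and 373 on the mutant arrays, against 980.4, 644, 1628, 644 and 465 on the wild-type arrays (1426673_at). The groups overlapped, and wild-type arrays 3 and 1, those that stood apart in general, were the highest. The log2 difference was -0.54 ± 0.48 (limma adjusted p = 0.882, exact permutation p = 0.246). The other Cdh3 probe set was dim and scattered, at 30.3 to 586 in mutants and 54.1 to 508 in the wild type (1441255_at), with a difference of 0.07 ± 0.75 whose sign turned under several alternatives, median centring among them, and it did not follow the first across arrays (r = -0.158, n = 9). The neighbouring genes Cdh1 and Cdh3 had interval estimates of -1.99 to -0.22 and -1.59 to 0.52, and the difference between them was not tested.

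Cdh4 encodes R-cadherin, a close relative of N-cadherin first known from the retina and present in early nephron epithelium. At its probe set with the highest mean the signal was 19908, 11889.9, 6636 and 6677 on the mutant arrays, against 9417, 4907, 2204, 4799 and 4060.1 on the wild-type arrays (1456397_at). Mutant arrays 1 and 2 lay above all wild-type arrays, and all 4 mutant arrays lay above 4 of the 5 wild-type arrays. The means were 11278 ± 6260.4 in mutants and 5077 ± 2657 in the wild type. The log2 difference was 1.17 ± 0.45, with an unadjusted interval of 0.19 to 2.16 (limma adjusted p = 0.717, exact permutation p = 0.0794).

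The second tested Cdh4 probe set was less regular. It read 11307, 4336, 1179 and 7263 on the mutant arrays and 4944, 2665, 2936, 3333 and 2174 on the wild-type arrays (1449422_at). Mutant array 3 was the lowest of all 9 arrays there, and mutant array 1 the highest at both probe sets. The difference was 0.59 ± 0.56 (limma adjusted p = 0.888), and the log2 values of the 2 probe sets correlated at r = 0.624 over the 9 arrays. Without mutant array 1 the 2 differences were 0.83 and 0.15. The third Cdh4 probe set was below the filter, at 8.05 to 276 in mutants and 4.46 to 254 in the wild type (1449637_at).

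Cdh6 encodes K-cadherin, the type II cadherin best known from the renal vesicle and from the proximal part of the nephron that forms from it. A table of promoter windows (GRCm38.p6) held an entry for Cdh6 at chr15:13173626-13173925, minus strand. It covers 250 bases before the gene's start and the first 50 after it. Cdh2 was not looked up, and of the remaining members only Cdh6 had an entry, so no Cdh1 window was available. The Cdh6 window is printed because E-boxes, the letters CANNTG, are what repressors of the Snail, Zeb and Twist families bind. These repressors were measured beside the cadherins. Capitals mark the only CANNTG, which begins 15 bases before the start and reads the same as a pattern on both strands.
Cdh6: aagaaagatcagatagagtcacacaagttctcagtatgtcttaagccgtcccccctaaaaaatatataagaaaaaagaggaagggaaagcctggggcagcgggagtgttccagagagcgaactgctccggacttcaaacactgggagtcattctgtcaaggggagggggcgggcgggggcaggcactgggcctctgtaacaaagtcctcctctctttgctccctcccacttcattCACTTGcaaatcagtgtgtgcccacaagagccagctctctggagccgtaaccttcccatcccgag
CANNTG is common, being present in 72.3% of 32851 promoter windows of this length. The Snail-type forms CAGGTG and CACCTG, which are each other's reverse complement and a subset of CANNTG, were not in this window and are in 20.2% of all, and TAATTA, a homeodomain core, was not in it and is in 5.29%. These are letter matches in a window, not binding sites.

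The Cdh6 signal was 13125, 11284, 10227 and 9168 on the mutant arrays, against 5627, 7219, 11101, 15158 and 14641 on the wild-type arrays (1442257_at). The mutant arrays sat together inside the wild-type range, with a coefficient of variation of 15.4% in mutants and 39.9% in the wild type. This was not particular to Cdh6. Every tested gene of the vesicle list except Pou3f3 (77.9% and 40.6%) varied less in mutants, such as Jag1 (4.0% and 33.7%) and Ccnd1 (5.6% and 34.4%). The means were 10951 ± 1687 in mutants and 10749 ± 4284 in the wild type. The log2 difference was 0.14 ± 0.31, turning to -0.060 without wild-type array 1, and its unadjusted interval was -0.54 to 0.83 (limma adjusted p = 0.958, exact permutation p = 0.69).

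The other Cdh6 probe set also overlapped, at 889, 962, 947 and 1262 on the mutant arrays and 1883, 486, 802, 1567 and 1821 on the wild-type arrays (1450288_at, -0.21 ± 0.49, unadjusted interval -1.27 to 0.86, limma adjusted p = 0.961). Here too the mutant arrays lay close together inside the wild-type range. The wild-type arrays were not ordered alike by the 2 probe sets, with array 1 the lowest at the first and the highest at this one, and their log2 values correlated at r = 0.143 over the 9 arrays.

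Cdh11, or OB-cadherin, is a type II cadherin of mesenchyme, carried in the embryonic kidney by mesenchymal cells. Its signal was 4092, 5454, 7587 and 3987 on the mutant arrays, against 2475, 7014, 4961, 1217 and 4280.4 on the wild-type arrays (1450757_at). The groups overlapped, and wild-type array 4 was the lowest. The log2 difference was 0.60 ± 0.49 (limma adjusted p = 0.868, exact permutation p = 0.333). The other probe set read 624 to 1454 in mutants and 366 to 2979.7 in the wild type (1435120_at, -0.19 ± 0.63, limma adjusted p = 0.976), with a correlation of r = 0.709 to the first over the 9 arrays and a difference of 0.15 without wild-type array 3.

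Cdh16, the kidney-specific cadherin of tubule epithelium and collecting duct, read 1581, 5878, 4258 and 1362 on the mutant arrays, against 708, 3980.5, 2732, 1010.3 and 651 on the wild-type arrays (1448906_at). Mutant arrays 2 and 3 and wild-type arrays 2 and 3 were high and the other 5 low, so that the spread within each group was larger than the difference between the group means. The log2 difference was 0.90 ± 0.64 (limma adjusted p = 0.847, exact permutation p = 0.238). The lowest and the highest of the 9 arrays differed 9.02-fold.

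**Figure D2:**
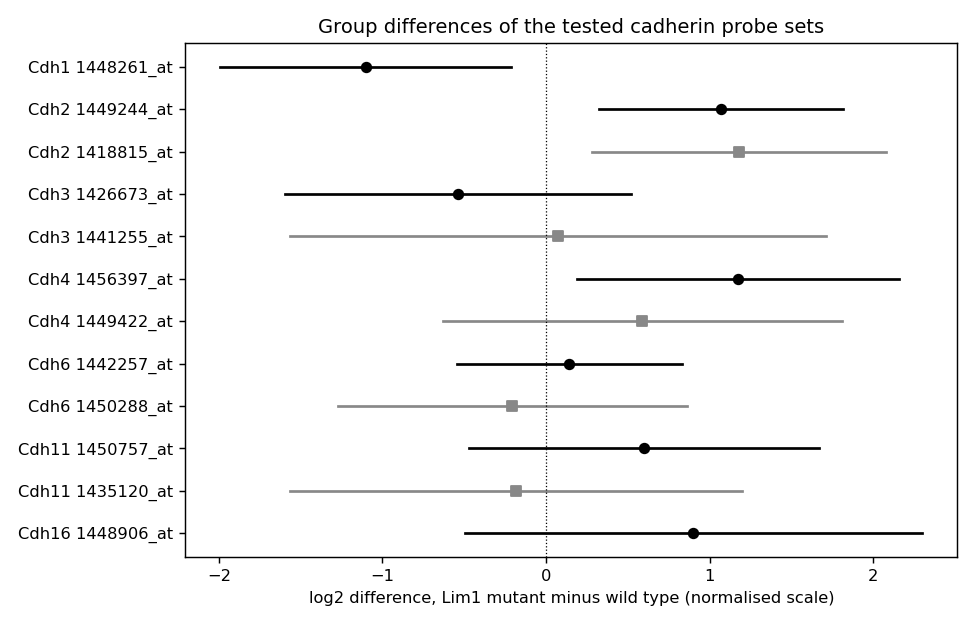
Log2 difference (mutant minus wild type) of the 12 tested cadherin probe sets with unadjusted 95% intervals from limma; black circles are the probe set with the highest mean of each gene and grey squares the others. The intervals of Cdh1 (-1.99 to -0.22), of both Cdh2 probe sets and of the first Cdh4 probe set do not cross 0, and none of these passed after adjustment over all probe sets.

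Ratios of cadherins within an array were compared between arrays as a description, since their zero point depends on the probe sets. The log2 ratio of Cdh1 over Cdh2 was -2.81, -2.55, -2.90 and -1.36 on the mutant arrays, against -0.67, -0.72, -1.09, 1.004 and 0.32 on the wild-type arrays. Its group difference was -2.17, and the groups did not overlap, mutant array 4 being the nearest to the wild type. The ratio of Cdh1 over Cdh6 was -3.53, -2.21, -2.37 and -2.15 on the mutant arrays, against -0.56, -1.63, -1.96, -1.16 and -1.28 on the wild-type arrays. That pair differed by -1.25 with no overlap either. Among all 87456925 pairs of tested genes, 2.71% showed no overlap, and of the 6 cadherin pairs examined 2 did, the 2 that contain Cdh1. The ratios reuse the Cdh1, Cdh2 and Cdh6 values given above, where Cdh1 and Cdh2 already differed in opposite directions. The members had also been chosen with earlier results known, those of Cdh2 and Cdh6 among them. The ratios are therefore no independent support for any of these genes. The 6 pairs were picked rather than drawn from all pairs, so the 2.71% is a background and no test of them.

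In the other 4 pairs the groups overlapped. Cdh6 over Cdh2 averaged 0.16 ± 0.69 in mutants and 1.09 ± 0.85 in the wild type (SD). Cdh4 over Cdh6 averaged -0.09 ± 0.58 in mutants and -1.12 ± 1.22 in the wild type. Cdh6 over Cdh11 averaged 1.10 ± 0.55 in mutants and 1.56 ± 1.38 in the wild type, where array 4 stood out at 3.77. Cdh16 over Cdh6 averaged -2.01 ± 1.11 in mutants and -2.77 ± 1.42 in the wild type.

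**Figure D3:**
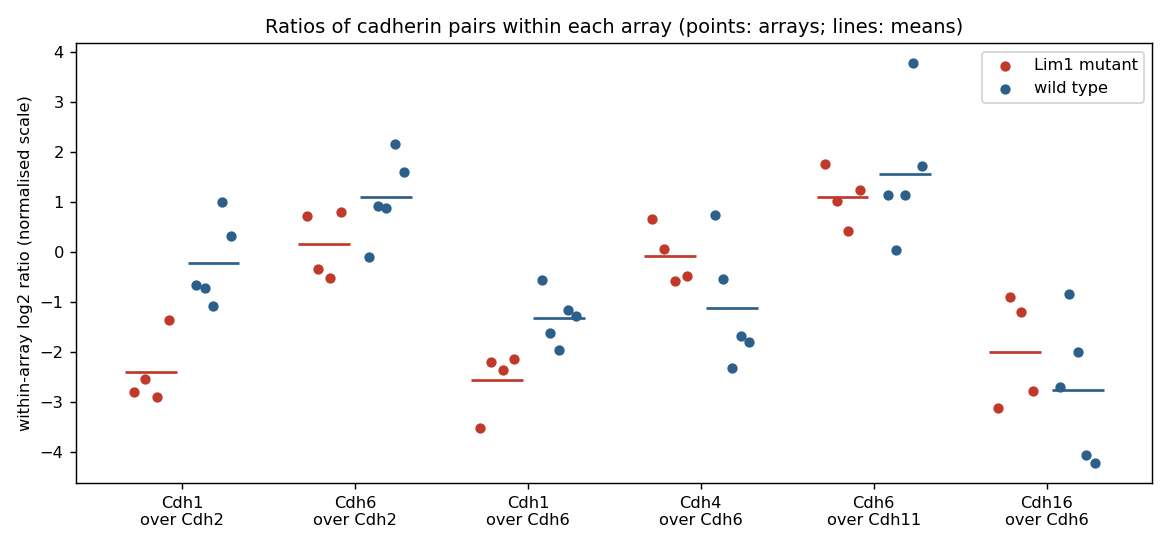
Log2 ratio of 6 cadherin pairs within each array (normalised scale; points are arrays, lines are group means, mutants on the left of each pair). For Cdh1 over Cdh2 the mutant arrays lie at -2.90 to -1.36 and the wild-type arrays at -1.09 to 1.004, and the groups are also apart for Cdh1 over Cdh6.

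The arrays that were high for one mesenchymal or tubular cadherin were partly the same for others. Mutant arrays 2 and 3 and wild-type arrays 2 and 3 had the highest Cdh16 values, and the stroma marker list was highest on the same 4 arrays, at 1.03 and 0.69 in mutants and 1.02 and 2.15 in the wild type. The highest Cdh11 values were on mutant array 3 and wild-type array 2, followed by mutant array 2 and wild-type array 3 (1450757_at). At the dimmer Cdh11 probe set mutant array 2 was lower, at 775, against 1615 on wild-type array 5 (1435120_at). On the normalised log2 scale, Cdh11 and Cdh16 correlated at r = 0.72 over the 9 arrays, Cdh2 and Cdh16 at 0.61, and Cdh1 and Cdh11 at -0.63. These are descriptions over arrays that share labelling and scaling, with both groups pooled.

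Marker lists of neighbouring cell types were measured on the same arrays. Their median log2 differences were -0.64 for the vesicle, -0.88 for the ureteric bud, -0.05 for cap mesenchyme, -0.32 for stroma and -0.64 for endothelium, beside 0.07 over all genes. Of 14 stroma genes 9 had differences below 0 and 5 above, with summed signals of 18462 to 61228 in mutants and 21844 to 195121 in the wild type, the highest on wild-type array 3. Foxd1, the defining stromal factor, was at 3495 ± 2074 in mutants and 3436 ± 2674 in the wild type. Meis1, a homeobox factor of stroma, had the lowest p of that list, at 6748 ± 764 in mutants and 3813 ± 805 in the wild type with no overlap (0.85 ± 0.25, limma adjusted p = 0.647). Of 10 tested cap mesenchyme genes 5 were above 0 and 5 below, with summed signals of 33308 to 39089 in mutants and 29420.4 to 42426 in the wild type. Six2, the factor of nephron progenitors, was at 2018 ± 868 in mutants and 996 ± 117 in the wild type. Meox1, a homeobox factor of the cap, was at 1517 ± 843 in mutants and 399.5 ± 394 in the wild type (limma adjusted p = 0.668), and Meox2 at 577 ± 688 in mutants and 2013 ± 991 in the wild type (limma adjusted p = 0.647).

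Of the 8 ureteric bud genes with a probe set 5 were tested, 4 of them below 0, with summed signals of 1998 to 5612 in mutants and 2266 to 47428 in the wild type. Calb1 had the lowest p of that list, at 1137 ± 1144 in mutants and 10037 ± 16710 in the wild type (limma adjusted p = 0.786). Ret, the receptor of the bud tip, was at 199 ± 187 in mutants and 2648 ± 3367 in the wild type. Wnt11 was the 1 tested bud gene above 0, at 1523 ± 591 in mutants and 912 ± 540 in the wild type (0.77 ± 0.49). Gata3, a transcription factor of the bud that lay below the filter and was not tested, read 4.44 to 10.7 in mutants and 15.04 to 2141 in the wild type, and was chosen after its values were seen. All 10 tested endothelial genes were below 0, where 47.3% of all tested probe sets were. Their summed signals were 4479 to 5887 in mutants and 4810 to 19282 in the wild type, again highest on wild-type array 3. Among 12 tested vesicle genes, the mutated Lhx1 included, 9 were below 0 and 3 above, with summed signals of 130069 to 149913 in mutants and 103227 to 279059 in the wild type. Dkk1, Dll1, Hes5 and Jag1 had the lowest p of that list (limma adjusted p = 0.651, 0.696, 0.722 and 0.73). At the probe set with the highest mean no gene of the 5 lists passed, Lhx1 having passed at its other probe set. Ret, a defining marker, ranged from 4.14 on mutant array 4 to 7618 on wild-type array 3. The part of these cell types in the cadherin values was not tested.

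**Figure D4:**
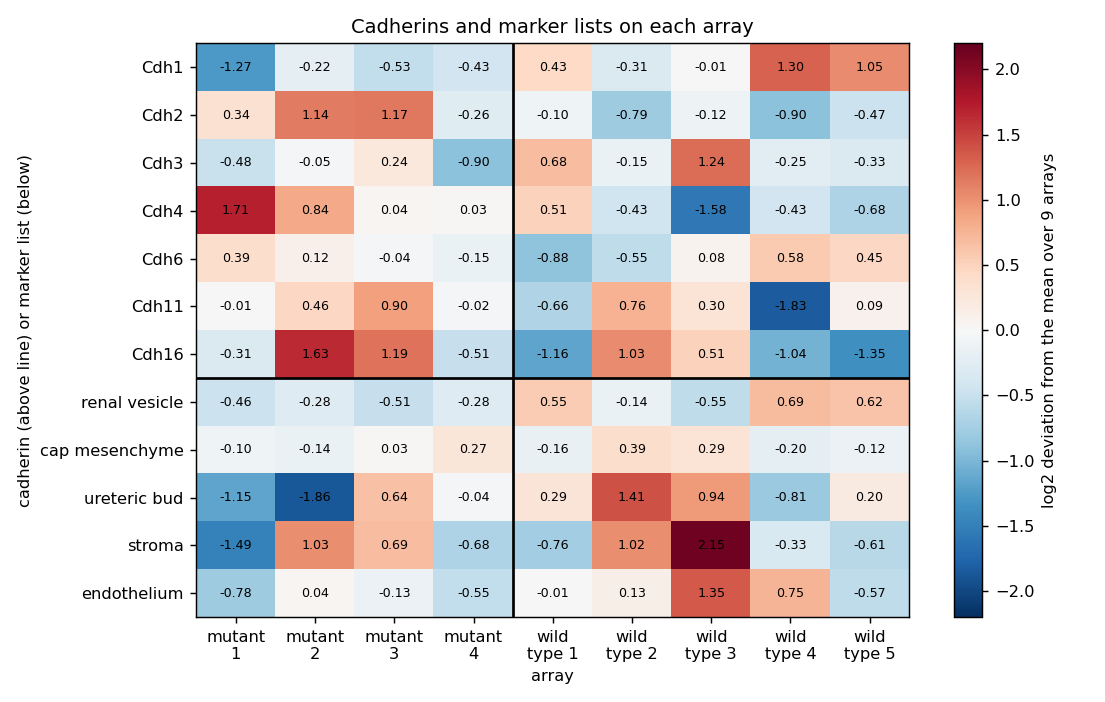
Log2 deviation of each cadherin (probe set with the highest mean) and level of 5 marker lists on each array, relative to the mean over the 9 arrays, with mutants on the left. Cdh1 and the vesicle list are both highest on wild-type arrays 4, 5 and 1, and Cdh16 and the stroma list are both highest on mutant arrays 2 and 3 and wild-type arrays 2 and 3.

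The catenins, which tie classical cadherins to actin, did not pass either. The 9 tested genes of this list include vinculin (Vcl, -0.20 ± 0.41), which is not a catenin, and Pkp4, at -0.006 ± 0.286. Of the 9, 7 had differences below 0, these included, and 2 above, with a median of -0.16, beside 0.07 over all genes. In limma 0 passed and 1 reached an unadjusted p of 0.05 (7.73% of all genes reached that p). That gene was Ctnnal1, an alpha-catenin relative, with 3662 ± 1607 in mutants and 6138 ± 755 in the wild type (log2 difference -0.82 ± 0.31, limma adjusted p = 0.717). Ctnna1, the main alpha-catenin of epithelia, had a difference of 0.17 ± 0.14, Arvcf, a p120 relative, one of -0.49 ± 0.44, and Ctnnd2, a p120 relative of neural tissue, one of -1.13 ± 0.83. Beta-catenin, Ctnnb1, chosen after its values were seen, was at 65891 ± 12689 in mutants and 71990.2 ± 16886 in the wild type, and its difference of -0.11 ± 0.14 was among the most precise of the list. The nectins and afadin form the companion adhesion system at the same junctions. They had 4 of 5 tested genes below 0 with a median of -0.45, beside 0.07 over all genes. None reached an unadjusted p of 0.05, where 7.73% of all genes did. Afdn, the afadin that links nectins to actin, had the lowest p of these, with 7885 ± 2270.01 in mutants and 10755 ± 1788 in the wild type (-0.45 ± 0.25, limma adjusted p = 0.797).

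Repressors known to act on Cdh1 in mesenchymal cells were split, with 5 of 10 tested genes above 0 and 5 below and a median of 0.00. None of these was at an unadjusted p of 0.05, against 7.73% of all genes. Zeb1 was at 1870 ± 1922 in mutants and 6322 ± 5679 in the wild type (-2.09 ± 1.27), and Twist2 at 946 ± 614 in mutants and 627 ± 899 in the wild type (1.54 ± 1.03). Snai1 had a difference of 0.25 ± 0.39 and Snai3, a less studied Snail relative, one of 0.83 ± 0.50. The standard errors of Zeb1 and Twist2 were well above the 0.49 median of all tested probe sets.

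Of the other 14 cadherin genes with a probe set, 8 passed the filter on dim probe sets, 3 above 0 and 5 below. None reached an unadjusted p of 0.05, which 7.73% of all genes reached. In a list this short, that does not show a lack of differences. Cdh5, the cadherin of endothelium, was at 255 ± 90.2 in mutants and 394 ± 140 in the wild type (-0.65 ± 0.42). Cdh23, a cadherin of the inner ear hair bundle, had a difference of -0.79 ± 0.44, Cdh22, a type II cadherin, one of 0.62 ± 0.51, and Cdh26 one of -0.26 ± 0.56.

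Genes whose log2 values followed a cadherin most closely over the 9 arrays were listed by Pearson r, among 13226 genes, as a description. Cdh1 was followed by Mtm1, a myotubularin phosphatase (r = 0.927), Plekha1, a pleckstrin homology adaptor (0.927), and Clip4 (0.921), with log2 differences of -0.74, -1.23 and -1.04. Cdh2 was followed by Fbrs (0.974), the collagen chaperone Serpinh1 (0.963) and the kinesin Kif21b (0.963), with differences of 1.01, 0.42 and 0.74. Cdh4 was followed by the Src-family kinase Fyn (0.916), Atad1 (0.897) and Lhfpl2 (0.894). For Cdh6 the closest were Zfp82 (0.951), the plexin Plxnb2 (0.945) and Stxbp3 (0.927). Cdh3 was followed by Igsf3 (0.978), Lactb2 (0.961) and the adhesion molecule Mcam (0.96), Cdh11 by the annexin Anxa5 (0.962), Atp6v1d (0.956) and Itpripl2 (0.943), and Cdh16 by Gpnmb (0.959), Rnf181 (0.947) and Spock2 (0.936). No cadherin was among the closest genes of another. With 13226 genes searched over 9 arrays, a high r can arise by chance, and whether these genes share regulation with a cadherin was not tested.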

How the data were processed

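The labels' protocols describe 2 rounds of amplification of total RNA from captured vesicles, with a biotin label. The deposited values are intensities, 1 per probe set and array, made by the authors with the GCOS software, per the submitters' processing notes. Its algorithm and version were not given in the sources used here. Trimmed of 2% at both ends, the array means were 1499 to 1500, so arrays had been scaled to a common level. Amplification favours the 3 prime end, and a probe set far from it can read low.

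Gene names came from the platform annotation (34958 with 1 symbol, 932 with several, 9211 with none). Intensities were transformed as log2(value + 42.4), the added value being the 25th percentile, and quantile normalised. The 64 control probe sets were left out, and the 27022 others at or above the 40th percentile of the mean were tested with limma 3.58.1 in R 4.3.3 (lmFit, eBayes with trend, two-sided, group as the only term), adjusting by Benjamini-Hochberg over all of them. For a gene with several probe sets, the brightest on average stood for it in lists, ratios and plots. Single values were compared by exact permutation over all splits of the arrays. The fit was tested on simulated data. Groups follow the sample titles, and whether arrays of a group came from separate litters is not stated, so p-values measure the spread between these samples. The number of arrays limits the precision. Named were all members, at most 4 genes per other list by lowest p, defining markers, and the 3 genes most like each member by Pearson r. The members and lists were chosen with earlier results of these data known. Alternatives covered normalisation, filter, pseudocount, variance trend, array weights, arrays left out and a replicate block. Same-numbered arrays were checked for pairing and their deviations correlated at -0.105 to 0.0537. This gave no sign that the numbers pair them, but it cannot exclude pairing.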

Additional observations from a re-analysis of the deposited data

Results flagged for a closer look

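Dixon's test for a lone extreme array was applied to 26 groups of cadherin values and met by 2, while about 1.3 would arise by chance (near 1 in 20). Both were at the dimmest probe set of Cdh4 (1449637_at), which was not tested. Mutant array 4 read 276 there, against 8.05 to 44.6 on the other mutant arrays, and wild-type array 5 read 254, against 4.46 to 23.9 on the other wild-type arrays. Neither array met Dixon's test at the 2 brighter Cdh4 probe sets.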

How the results depend on the processing

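No cadherin probe set passed under any of the 19 alternatives that refitted all probe sets, and 4 of 12 reached an unadjusted p of 0.05 under 16 of them, with a lowest count of 2, without mutant array 1. Of 235 cadherin values under alternatives, 223 kept their direction, including all for Cdh1 (-1.30 to -0.89), Cdh2 (0.87 to 1.36 and 0.93 to 1.56) and Cdh4 (0.83 to 1.43 and 0.15 to 1.21). Directions turned at 3 probe sets. The dim Cdh3 probe set, at 0.07 in the reported fit, read -0.031 with median centring, -0.14 with array weights, -0.74 without wild-type arrays 1 and 3 and -0.38 to 0.68 with 1 array left out. The first Cdh6 probe set read -0.081 without wild-type arrays 1 and 3 and -0.060 to 0.31 with 1 array left out, while the average of both Cdh6 probe sets was -0.031, and the dimmer Cdh11 probe set read -0.54 to 0.15 with 1 array left out. The causes were not tested. Over all probe sets, 3 to 8 passed in limma with 1 array left out, 0 without wild-type arrays 1 and 3 (2013 at an unadjusted p of 0.05) and 0 with the replicate block (1756 at an unadjusted p of 0.05). The replicate numbers gave no sign of pairing the arrays, which does not exclude it, and of 4 mutant arrays 1 correlated best with its own number. With that block 3 cadherin probe sets reached an unadjusted p of 0.05. The Cdh1 over Cdh2 ratio differed by -2.59 to -1.87 over the alternatives run for it, and Cdh1 over Cdh6 by -1.41 to -0.93. With 4 and 5 arrays, limma intervals of the cadherins spanned from 1.37 to 3.28 log2 units.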
